A study of Mus musculus with 9 samples.

Results

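The products of 10 genes followed here make or export lactate, admit pyruvate to mitochondria or restrain its oxidation there. The genes were studied in mouse calvarial cells becoming osteoblasts: Ldha, Ldhb, Slc16a1, Slc16a3, Pdk1, Pdk2, Pdk3, Pdk4, Mpc1 and Mpc2. They were picked by symbol, and all 10 were found among the 40548 genes of the expression tables. Lactate dehydrogenase is a tetramer of A subunits (Ldha) and B subunits (Ldhb) that interconverts pyruvate and lactate, with the A form known for pyruvate reduction in glycolytic tissue and the B form for lactate oxidation in heart. The monocarboxylate transporters MCT1 (Slc16a1) and MCT4 (Slc16a3) carry lactate with a proton across the plasma membrane, MCT4 being the form typical of cells that export lactate. Pyruvate that is not reduced enters mitochondria through a carrier made of Mpc1 and Mpc2 and is oxidized by the pyruvate dehydrogenase complex, which the kinases Pdk1 to Pdk4 switch off by phosphorylation and phosphatases switch on again. Osteoblasts are known for releasing much of their glucose carbon as lactate even when oxygen is present.

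The cells came from the calvaria (skull vault) of C57BL/6 pups and were grown to confluency. They were collected undifferentiated at day 0, or after 4 or 7 days in mineralization medium, to which the methods say β-glycerol phosphate and ascorbic acid were added. Total RNA depleted of ribosomal RNA gave 3 libraries per stage, 9 in all. Mineralized cells were released with collagenase before trypsin and non-mineralized cells without it, so stage and release cannot be told apart. The methods call the replicates biological but the labels do not say whether they were separate isolations. If they were not, p-values measure only the spread between these libraries. The cultures are mixtures, and fewer cells of a type and less RNA per cell cannot be told apart in bulk RNA.

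The osteoblast label was checked against 6 markers, of which Sp7, Alpl, Bglap, Ibsp and Col1a1 were higher at day 7 than at day 0 and Runx2 did not pass the test. Markers of other cells moved as well. All 7 macrophage markers were higher at day 7. Their summed level was 46.2 to 77.7 RPKM at day 0, 88.5 to 95.9 at day 4 and 88.8 to 117 at day 7. RPKM is reads scaled to the length of the gene and the size of the library. The pan-leukocyte gene Ptprc, 1 of the 7, was higher as well but reached at most 0.144 RPKM in any library. The osteoclast genes Acp5 and Ctsk were also higher (Ocstamp, Oscar and Dcstamp, the other 3 on that list, were too low to test, at 0.227 RPKM or below), and the chondrocyte genes Col2a1 and Col9a1 lower, with the summed chondrocyte markers at 154 to 450.1 RPKM at day 0 and 41.6 to 120.1 at day 7. Acan, another chondrocyte gene, and the muscle actin gene Acta1 were higher, while the muscle genes Myod1, Myog and Ckm had at most 3 reads in any library. Adipocyte and endothelial markers were too low to test, with Lep, Cidec and Emcn at 0. The part of these cells in the results below was not tested. Reads on genes numbered 7741204 to 15622755 per library at days 0 and 7 and 32820610 to 37306090 at day 4. Gm42418, a gene model that overlaps ribosomal RNA, took 11.96% of the reads of day 0 replicate 3 and 8.12% of day 7 replicate 2, and Plekhh2 took 7.95% of day 7 replicate 3. The first of these libraries had the lowest day 0 value of 7 of the 10 genes.

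In the GRCm38 genome with GENCODE M21 annotation, Ldha (ENSMUSG00000063229) spans chr7:46841475-46855627 and Ldhb (ENSMUSG00000030246) chr6:142490249-142507957. Slc16a1 (ENSMUSG00000032902) spans chr3:104638668-104658462 and Slc16a3 (ENSMUSG00000025161) chr11:120948480-120960868. Values are sums over each gene's exons and do not separate its transcripts, of which Ldha has 15 and Slc16a1 has 1. Pdk1 (ENSMUSG00000006494) spans chr2:71873224-71903858, Pdk2 (ENSMUSG00000038967) chr11:95026258-95041354, Pdk3 (ENSMUSG00000035232) chrX:93764607-93832201 and Pdk4 (ENSMUSG00000019577) chr6:5483351-5496309. Mpc1 (ENSMUSG00000023861) spans chr17:8282904-8297661 and Mpc2 (ENSMUSG00000026568) chr1:165460637-165481214. Reads were counted only where they aligned to a single place, and 26.8% of the 50-base stretches of Mpc1, 20.99% of Ldhb and 10.4% of Ldha also occur in other genes, mostly processed pseudogenes. Reads assigned to the pseudogenes came to 11.03 to 23.8% of those of Mpc1 over the libraries. They came to at most 0.649% of those of Ldhb and at most 0.0706% of those of Ldha. Mpc1 was highest on both measures. Reads that fit a gene and its pseudogene alike were not counted, so how much each gene lost was not measured. Mpc1 and Pdk2 also have antisense genes, which held at most 6.19% and 1.96% as many reads, and whether counting used the strand is not stated in the sources used here.

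Promoter sequences are shown for the 4 genes whose level differed between day 7 and day 0 and for Slc16a1, the paralog of the gene that differed most. They are the 250 bases before the RefSeq start (build GRCm38.p6), written along the gene's strand, and capitals mark ACGTG or GCGTG on either strand (CACGT and CACGC when read on the other strand). These letters are the core of the hypoxia response element, the site of hypoxia-inducible factors.
Ldha, chr7:46845554-46845803, forward strand: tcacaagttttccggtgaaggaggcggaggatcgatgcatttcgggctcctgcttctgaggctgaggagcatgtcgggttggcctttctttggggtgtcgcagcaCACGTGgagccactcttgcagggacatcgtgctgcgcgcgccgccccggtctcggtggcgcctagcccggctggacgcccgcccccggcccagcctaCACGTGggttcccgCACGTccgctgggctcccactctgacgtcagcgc
Slc16a3, chr11:120948817-120949066, forward strand: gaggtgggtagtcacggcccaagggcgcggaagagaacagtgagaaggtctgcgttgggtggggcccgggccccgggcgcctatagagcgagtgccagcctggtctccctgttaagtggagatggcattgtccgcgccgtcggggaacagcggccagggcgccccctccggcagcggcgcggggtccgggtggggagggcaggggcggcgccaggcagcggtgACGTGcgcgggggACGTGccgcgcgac
Pdk1, chr2:71872974-71873223, forward strand: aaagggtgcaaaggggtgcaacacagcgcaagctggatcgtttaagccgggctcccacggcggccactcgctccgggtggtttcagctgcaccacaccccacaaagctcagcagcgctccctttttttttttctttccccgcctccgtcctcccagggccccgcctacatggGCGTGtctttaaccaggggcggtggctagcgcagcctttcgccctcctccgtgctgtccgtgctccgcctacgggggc
Slc16a1, chr3:104638414-104638663, forward strand: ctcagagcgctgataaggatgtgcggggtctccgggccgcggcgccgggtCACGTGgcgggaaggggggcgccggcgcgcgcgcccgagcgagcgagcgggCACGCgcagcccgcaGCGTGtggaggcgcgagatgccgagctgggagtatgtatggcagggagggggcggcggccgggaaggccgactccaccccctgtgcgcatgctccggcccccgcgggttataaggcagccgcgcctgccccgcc
Ldhb, chr6:142507958-142508207, reverse strand: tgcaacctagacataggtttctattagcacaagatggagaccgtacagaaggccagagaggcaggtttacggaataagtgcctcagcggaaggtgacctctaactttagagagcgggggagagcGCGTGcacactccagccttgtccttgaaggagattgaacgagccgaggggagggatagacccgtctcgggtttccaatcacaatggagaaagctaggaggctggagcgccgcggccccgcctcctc

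The Ldha window held 5 matches to ACGTG, 4 of them in a pair of CACGTG palindromes where both strands match at overlapping positions. Slc16a3 had 2 matches to ACGTG, starting 27 and 14 bases before the start site. The Pdk1 window had none, but held GCGTG 78 bases before the start and once more across it, where the capitals do not reach. Ldha and Pdk1 each have another RefSeq start, and the window there held GCGTG but no ACGTG for Ldha and neither for Pdk1. The 50 bases after the printed Ldha start were found whole in no GENCODE transcript of the gene, against 1 for its other start. Those after the printed Slc16a1 start were found whole in none either. Slc16a1, whose level did not pass the test, had a CACGTG palindrome as well, and Ldhb had GCGTG alone. Pdk2 and Pdk3, which did not pass either and are not printed, also held ACGTG, in Pdk2 as a CACGTG palindrome. Thus ACGTG occurred in 5 of the 10 genes: Ldha and Slc16a3, which rose, and Slc16a1, Pdk2 and Pdk3, which did not pass. RefSeq has windows for all 10 genes, 14 in all because some genes have several starts, and counting 50 bases past the start as well, 5 of the 14 windows held ACGTG and 9 held GCGTG. Of all 32851 RefSeq windows of this length 19.6% hold ACGTG and 32.4% hold GCGTG. A match is a description of letters and not of binding.

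Of the 10 genes, 3 were higher at day 7 than at day 0 (Ldha, Slc16a3 and Pdk1), 1 was lower (Ldhb) and 6 did not pass the test. The test was limma on log2(CPM + 0.5), CPM being reads scaled to the size of the library alone, over the 12712 genes with a mean of at least 1 CPM, with Benjamini-Hochberg adjusted p of at most 0.05. The same test called 12.6% of all genes tested higher and 18.6% lower. All 10 genes were tested, and their median log2 fold change was 0.08 against -0.11 for all genes. The median of all genes was -0.01 when the libraries were scaled by median of ratios, under which 52.1% of calls were higher instead of 40.3%. The 4 calls held in every alternative that was run, and the fit with TMM scaling and voomWithQualityWeights on recovered reads, the function the study names, also called Slc16a1 and Pdk4 higher, making 5, and called 24.8% of all genes higher and 23.4% lower. The 4 called genes were also those that passed a cut of over 2-fold between any 2 stages with more than 2 RPKM in the higher, which 13.1% of 10546 genes passed.

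**Figure D1:**
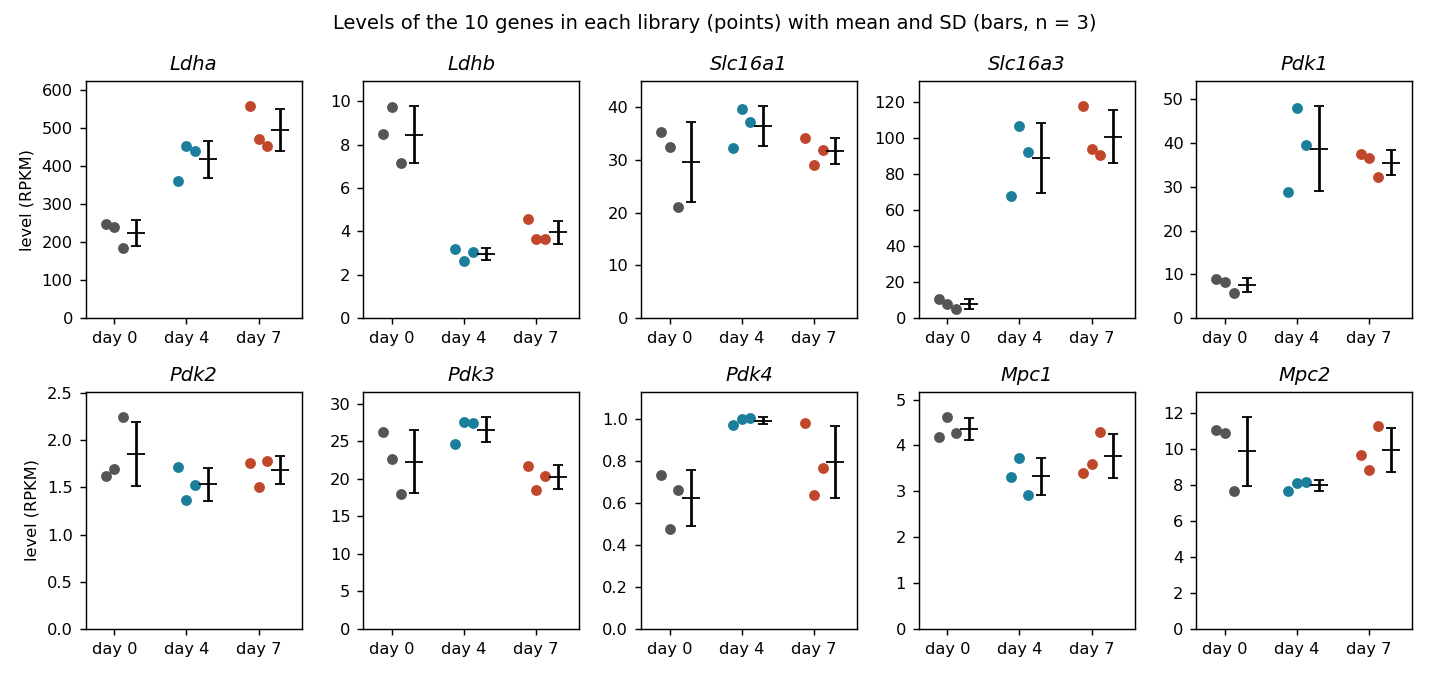
Level of each gene in RPKM (vertical axes, which start at 0 and differ between panels) in the 3 libraries of each stage (points), with the mean and SD beside them (n = 3). Ldha, Slc16a3 and Pdk1 were above every day 0 library at days 4 and 7 and Ldhb was below, while the other genes overlapped between days 0 and 7.

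Ldha, the A subunit of lactate dehydrogenase, had the highest level of the 10 genes at every stage. It stood at 246, 239.6 and 184 RPKM in the day 0 libraries, 361, 451 and 439 at day 4 and 556, 471 and 453 at day 7. Every day 4 library was above every day 0 library, and every day 7 library was above every day 4 library, the latter by a narrow margin (453 against 451 RPKM) that was lost under median-of-ratios scaling. The means were 223 ± 34.3, 417 ± 49.1 and 494 ± 55.2 RPKM (SD, n = 3 each), and day 7 was 2.21-fold above day 0. The log2 fold change was 1.15 (SE 0.17, 95% interval 0.81 to 1.49), with an adjusted p = 3.04e-07 in limma, and it was 1.02 without day 0 replicate 3.

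Ldhb, the B subunit, moved the other way at a far lower level. The day 0 libraries held 8.49, 9.74 and 7.15 RPKM, the day 4 libraries 3.20, 2.63 and 3.04 and the day 7 libraries 4.57, 3.64 and 3.67, from 61 to 187 reads. Both later stages were below every day 0 library, and every day 7 library was above every day 4 library, so the lowest level was at day 4. The means were 8.46 ± 1.30, 2.96 ± 0.295 and 3.96 ± 0.529 RPKM. Day 7 was lower than day 0 with a log2 fold change of -1.03 (SE 0.20, interval -1.43 to -0.64; limma adjusted p = 4.16e-05). The ratio of Ldha to Ldhb, computed after the values were seen, averaged 26.4 at day 0, 143 at day 4 and 125 at day 7. Its lowest value after day 0 (113) was above the highest at day 0 (29.0).

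Slc16a3, which encodes MCT4, rose most. It held 10.7, 7.86 and 5.0 RPKM at day 0, 67.8, 106 and 92.3 at day 4 and 118, 93.9 and 90.6 at day 7. Days 4 and 7 overlapped with each other and both lay far above day 0. Means were 7.85 ± 2.85, 88.9 ± 19.6 and 101 ± 14.7 RPKM, and day 7 was 12.8-fold above day 0. The log2 fold change was 3.72 (SE 0.18, interval 3.36 to 4.08), with an adjusted p = 7.16e-23 in limma, and 3.43 without day 0 replicate 3.

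Slc16a1, which encodes MCT1, did not pass the test. Its values were 35.2, 32.4 and 20.97 RPKM at day 0, 32.3, 39.6 and 37.2 at day 4 and 34.1, 29.0 and 31.8 at day 7, and the 3 stages overlapped. The spread at day 0 comes from replicate 3, and the log2 fold change of 0.13 (interval -0.20 to 0.46; limma adjusted p = 0.59) became -0.10 without it. With TMM and voomWithQualityWeights it was 0.21 with an adjusted p = 0.0479 in limma. Per length, MCT1 mRNA was the more abundant of the pair at day 0 and MCT4 mRNA at days 4 and 7.

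The transporters reach the plasma membrane with a partner protein, basigin (Bsg) for MCT1 and MCT4 or embigin (Emb) for MCT1 in some cells. Bsg was already the most abundant gene of the pathway at day 0 with 364, 343 and 289 RPKM and reached 503, 730.5 and 603 at day 4 and 846, 744 and 689 at day 7. It rose by a log2 fold change of 1.19 (SE 0.17; limma adjusted p = 8.12e-08), close in size to that of Ldha. Emb stood at 11.7, 10.1 and 6.13 RPKM at day 0 and 5.52, 6.11 and 4.40 at day 7. It was lower at day 7, with a log2 fold change of -0.74 (SE 0.20; limma adjusted p = 0.00301), although its highest day 7 library (6.11) came close to its lowest day 0 library (6.13). Neuroplastin (Nptn), the third member of that protein family, did not pass the test at 38.5 ± 4.42 and 35.5 ± 0.620 RPKM. The ratio of Bsg to Emb averaged 37.4, 92.0 and 144 at days 0, 4 and 7, and that of Bsg to the sum of both transporters 9.20, 4.89 and 5.75. There were thus fewer Bsg reads per transporter read, per length, after differentiation than before.

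Pdk1 was the only kinase of pyruvate dehydrogenase that passed the test. It held 8.87, 8.32 and 5.86 RPKM at day 0, 28.7, 47.9 and 39.6 at day 4 and 37.5, 36.6 and 32.3 at day 7. Days 4 and 7 overlapped and both were above every day 0 library. The means were 7.68 ± 1.60, 38.7 ± 9.62 and 35.5 ± 2.81 RPKM, a 4.62-fold difference between days 7 and 0. In the test its log2 fold change was 2.22 (SE 0.16, interval 1.89 to 2.54; limma adjusted p = 3.31e-16), and 2.03 without day 0 replicate 3.

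Pdk3 was the leading kinase at day 0, with 26.3, 22.6 and 17.9 RPKM. Its day 4 values were 24.6, 27.5 and 27.4 and its day 7 values 21.7, 18.5 and 20.4 RPKM, so every day 7 library was below every day 4 library while days 0 and 7 overlapped. Its log2 fold change between days 7 and 0 was -0.12 (interval -0.45 to 0.20; limma adjusted p = 0.606), or 0.012 with TMM and voomWithQualityWeights. Pdk2 ranged from 1.62 to 2.25 RPKM at day 0, 1.36 to 1.71 at day 4 and 1.51 to 1.78 at day 7. It did not pass the test either, with -0.12 on the log2 scale (interval -0.55 to 0.31; limma adjusted p = 0.721), or 0.15 with TMM and voomWithQualityWeights.

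Pdk4, the kinase known for its induction by fasting and fatty acids, had the lowest level of the 10 genes. It held 0.731, 0.476 and 0.662 RPKM at day 0, 0.971, 0.999 and 1.00 at day 4 and 0.980, 0.640 and 0.765 at day 7, and the fewest reads in a library were 18. The day 4 libraries were all above the day 0 libraries and overlapped with day 7. The log2 fold change from day 0 to day 7 was 0.29 (interval -0.21 to 0.79; limma adjusted p = 0.4), against 0.71 and an adjusted p = 0.0362 in limma with TMM and voomWithQualityWeights. Without day 0 replicate 2 or day 7 replicate 1 the change was 0.15. With so few reads its interval was wider than that of any other of the 10 genes.

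The kinases are opposed by a phosphatase with the catalytic subunits Pdp1 and Pdp2 and the regulatory subunit Pdpr. All their mean levels were lower at day 7 than at day 0, and 2 of the 3 passed the test, beside 18.6% of all genes called lower. Pdpr stood at 10.8, 10.6 and 8.78 RPKM at day 0, 6.50, 6.81 and 6.34 at day 4 and 6.38, 6.00 and 5.55 at day 7, with a log2 fold change of -0.74 (SE 0.16; limma adjusted p = 0.000304). Its later values were all below those of day 0. Pdp1 went from 9.24, 8.40 and 5.73 RPKM to 5.31, 5.34 and 5.63 with a log2 fold change of -0.48 (SE 0.17; limma adjusted p = 0.0291), a call that was lost in 8 of 17 alternatives. Pdp2 did not pass (-0.27 on the log2 scale, limma adjusted p = 0.343). The summed RPKM of the kinases was 3.07 times that of Pdp1 and Pdp2 at day 0, 7.24 times at day 4 and 7.46 times at day 7, and the lowest later library (5.52) was above the highest at day 0 (3.41).

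Neither subunit of the mitochondrial pyruvate carrier passed the test. Mpc1 held 4.18, 4.62 and 4.28 RPKM at day 0, 3.32, 3.73 and 2.93 at day 4 and 3.41, 3.60 and 4.30 at day 7. All day 4 libraries were below those of day 0, and day 7 overlapped with both. This left a log2 fold change of -0.20 (interval -0.60 to 0.19; limma adjusted p = 0.468). Mpc2 held 11.04, 10.9 and 7.67 RPKM at day 0, 7.64, 8.13 and 8.16 at day 4 and 9.66, 8.86 and 11.3 at day 7. Its day 7 libraries were all above those of day 4 and overlapped with day 0. Between days 7 and 0 its log2 fold change was 0.02 (interval -0.32 to 0.36; limma adjusted p = 0.944), and -0.15 without day 0 replicate 3.

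Downstream of the carrier, 5 of the 6 genes of the pyruvate dehydrogenase complex could be tested. Of these 1 was lower, beside 18.6% of all genes. Pdha1, the E1 subunit that the kinases phosphorylate, stood at 66.6 ± 7.49 RPKM at day 0 and 60.5 ± 2.27 at day 7 (log2 fold change -0.13; limma adjusted p = 0.546). Pdhb, Dlat and Dld, the other E1 subunit, E2 and E3, had log2 fold changes between -0.06 and 0.15 and did not pass, although Dld was called higher under median-of-ratios scaling and with edgeR and DESeq2. Pdhx, which binds E3 to the core, went from 7.16 ± 1.27 to 5.04 ± 0.765 RPKM, or -0.49 on the log2 scale (limma adjusted p = 0.0288), and that call was lost in 6 of 17 alternatives. The ratio of Pdk1 to Pdha1 averaged 0.115 at day 0, 0.649 at day 4 and 0.588 at day 7.

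Among the other fates of pyruvate, Pcx, whose product carboxylates pyruvate to oxaloacetate, was lower after differentiation. It held 22.1, 22.9 and 19.6 RPKM at day 0, 9.27, 9.17 and 9.31 at day 4 and 8.84, 7.52 and 8.01 at day 7. Its log2 fold change was -1.39 (SE 0.16; limma adjusted p = 4.53e-10), and no later library reached the lowest of day 0. Gpt2, the mitochondrial alanine transaminase, was higher at 24.5 ± 3.68 and 32.3 ± 2.03 RPKM at days 0 and 7 (log2 fold change 0.41; limma adjusted p = 0.0398), a call lost in 7 of 17 alternatives. Of 25 symbols chosen for the pathway beside the 10 genes, 24 matched, 20 were tested, 2 were higher (Bsg and Gpt2) and 5 lower (Emb, Pdhx, Pdp1, Pdpr and Pcx), beside 12.6% and 18.6% of all genes. Their median log2 fold change was -0.06, near that of all genes.

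**Figure D2:**
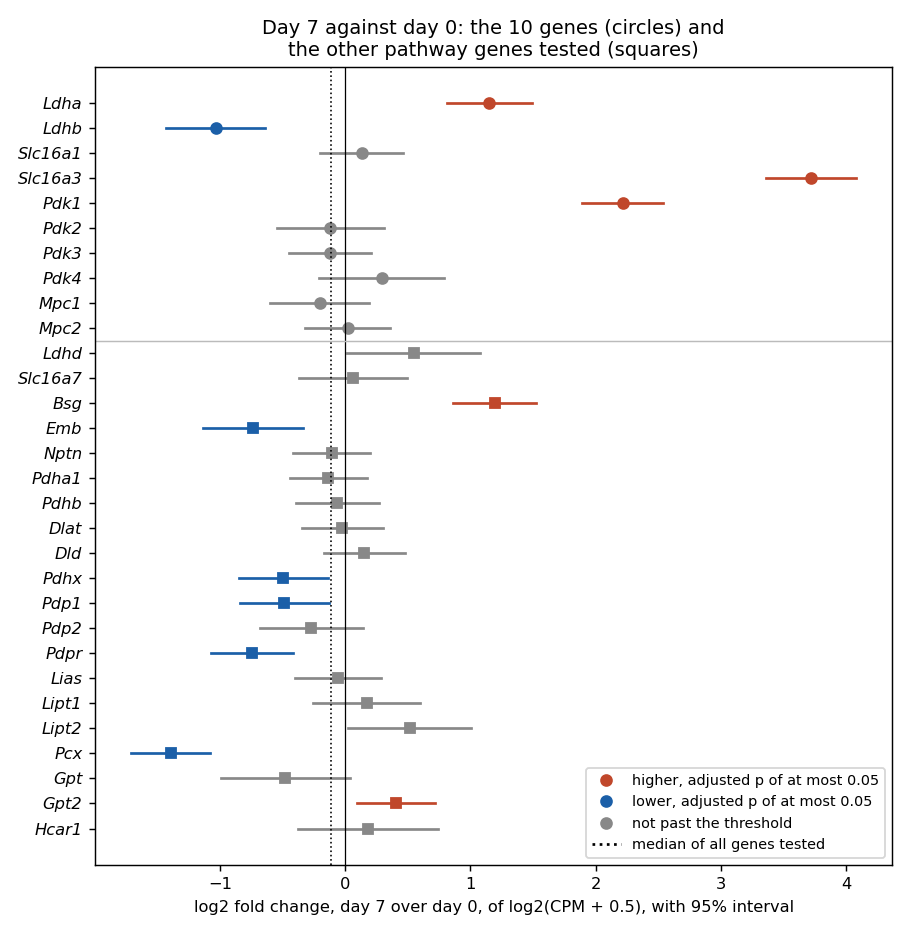
Log2 fold change of day 7 over day 0 (horizontal axis) with its 95% interval for the 10 genes (circles) and the 20 tested pathway genes (squares), coloured by the limma call, with the median of all genes as a dotted line. Slc16a3 (3.72), Pdk1 (2.22), Bsg (1.19) and Ldha (1.15) lie far to the right, and Pcx (-1.39) and Ldhb (-1.03) far to the left.

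A share of 1 gene in its family does not depend on how a library is scaled, and was compared in RPKM. Slc16a3 made up 20.7 ± 2.26% of the summed RPKM of both transporters at day 0, 70.6 ± 2.63% at day 4 and 75.98 ± 1.76% at day 7. Pdk1 made up 23.6 ± 1.60% of the kinases at day 0, 56.6 ± 5.15% at day 4 and 61.0 ± 2.77% at day 7, while Pdk3 went from 68.5% to 39.6% and 34.8%. Ldha made up 96.3 ± 0.297%, 99.3 ± 0.152% and 99.2 ± 0.0256% of lactate dehydrogenase. For these 3 shares no day 7 library overlapped with day 0, and the exact permutation test (two-sided) gave p = 0.1, the smallest that 3 libraries against 3 allow, or 0.133 after Benjamini-Hochberg adjustment over 4 shares. The share of Mpc1 in the carrier was 31.0 ± 4.31% at day 0 and 27.5 ± 1.39% at day 7, a difference of -3.47 percentage points with an exact permutation p = 0.3, and leaving out day 0 replicate 3 or day 0 replicate 1 gave -1.07 or -5.25 points. The design therefore cannot bring any share under 0.05.

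**Figure D3:**
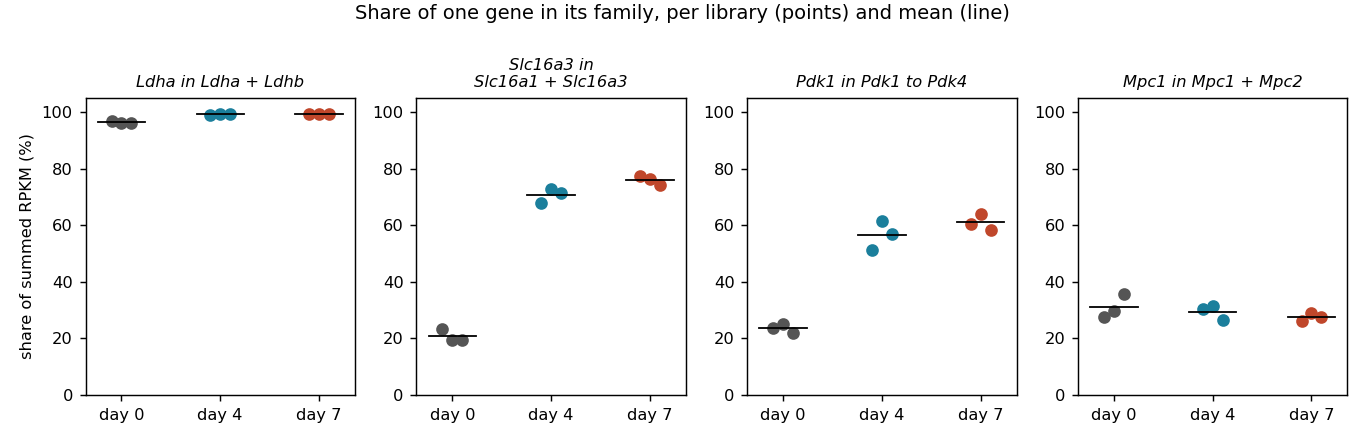
Share of 1 gene in the summed RPKM of its family (vertical axis, percent, from 0) in each library (points) with the mean of each stage (line). The Slc16a3 share moved from 20.7% to 75.98% and the Pdk1 share from 23.6% to 61.0% between days 0 and 7, and the Mpc1 share overlapped between stages.

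The summed levels and the order of the genes were taken from the same RPKM values and are no separate evidence of a shift. Both transporters together went from 37.4 ± 10.3 RPKM at day 0 to 125 ± 23.3 at day 4 and 132 ± 16.8 at day 7, and the 4 kinases from 32.4 ± 5.42 to 67.8 ± 11.01 and 58.2 ± 3.45. The carrier stood at 14.2 ± 1.98, 11.3 ± 0.487 and 13.7 ± 1.65 RPKM. At day 0 the mean levels ran from Ldha through Slc16a1, Pdk3, Mpc2, Ldhb, Slc16a3, Pdk1, Mpc1 and Pdk2 to Pdk4. In that order Slc16a1 and Pdk3 overlapped, as did each neighbouring pair from Mpc2 to Pdk1. At day 7 the order was Ldha, Slc16a3, Pdk1, Slc16a1, Pdk3, Mpc2, Ldhb, Mpc1, Pdk2 and Pdk4, in which only Pdk1 overlapped with Slc16a1 and Ldhb with Mpc1. At day 4 the order was the same as at day 7 except that Mpc1 stood above Ldhb, and these overlapped.

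Day 4 entered no test, and its levels, ratios and shares are descriptions, since its tables are separate and its libraries deeper, so that table, depth and stage cannot be told apart. Between days 0 and 4, 4 genes were higher in every library (Ldha, Slc16a3, Pdk1 and Pdk4), against 21.4% of all genes compared, and 2 were lower in every library (Ldhb and Mpc1), against 22.0%. Between days 4 and 7, 3 were higher in every library (Ldha, Ldhb and Mpc2), against 13.7%, with Ldha lost under median-of-ratios scaling, and 1 was lower (Pdk3), against 25.0%. Between days 0 and 7 the genes without overlap were the 4 that passed the test, 3 higher (against 16.9%) and 1 lower (against 25.4%). The log2 ratio of mean RPKM of Slc16a3 was 3.50 in the first step and 0.18 in the second, that of Pdk1 2.33 and -0.13, and that of Ldha 0.90 and 0.24. Ldhb fell by 1.52 on this scale by day 4 and stood 0.42 higher at day 7. With 1 library left out, the second-step ratio of Pdk1 ran from -0.30 to 0.055, turning without day 4 replicate 2, that of Slc16a3 from 0.018 to 0.33 and that of Ldha from 0.15 to 0.30. Under median-of-ratios scaling Slc16a1 and Pdk3 were also higher in every library at day 4 than at day 0, making 6, and the genes lower in every library were Ldhb and Mpc2, without Mpc1. The 6 were also those higher without day 4 replicate 1, and Pdk2 was then lower as well, while without day 0 replicate 3 Mpc2 was. Day 4 replicate 1 held the lowest day 4 value of 7 genes. Without it, 4 genes (Slc16a1, Pdk1, Pdk3 and Pdk4) were lower in every library at day 7 than at day 4. Without day 7 replicate 1, 3 were (Slc16a1, Pdk3 and Pdk4). Shares of all genes without overlap between stages were not computed with scaling or with a library left out. The counts under those settings therefore cannot be set against a background.

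**Figure D4:**
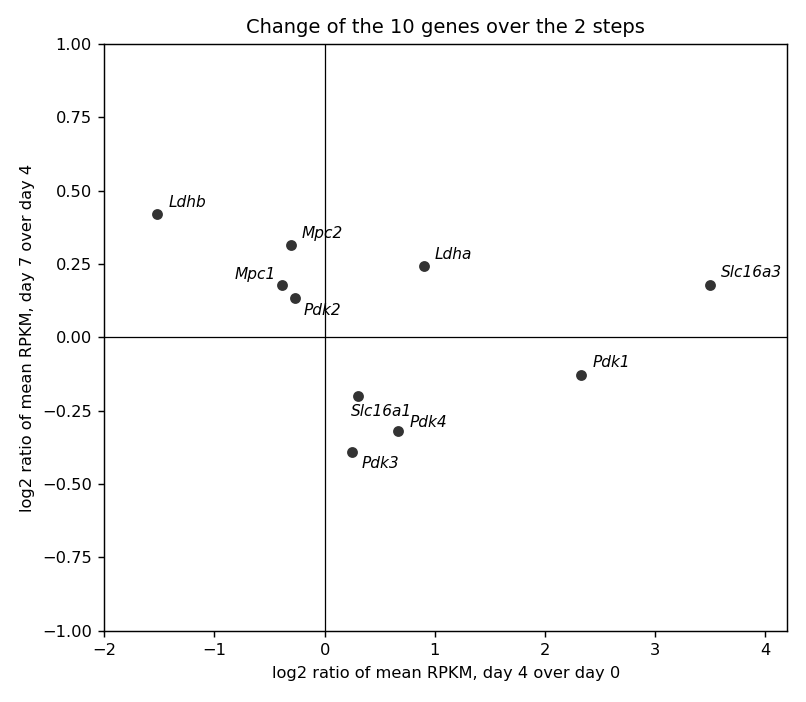
Log2 ratio of mean RPKM of day 4 over day 0 (horizontal axis) and of day 7 over day 4 (vertical axis, drawn on a wider scale) for the 10 genes. Slc16a3 and Pdk1 lie far to the right at 3.50 and 2.33 and near 0 on the vertical axis, Ldha is positive on both axes, and Ldhb is at -1.52 and 0.42. The ratios share the day 4 means, so the 2 axes are not independent.

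The genes whose profile over the 9 libraries was most like those of the 3 risen genes were found by the root mean square difference of log2(CPM + 0.5), each gene centred on its mean, among 9094 genes with a mean of at least 10 CPM. For Slc16a3 they were Mgarp (0.193), P3h2 (0.222) and Ptgis (0.239), against a median of 1.78 over all genes. Ptgis, which encodes prostacyclin synthase, went from 15.3 RPKM at day 0 to 132 at day 4 and 146 at day 7. For Pdk1 they were Ak4 (0.161), Fam162a (0.162) and Gng11 (0.173), against a median of 1.14. Fam162a went from 69.1 to 307 and 367 RPKM and the adenylate kinase gene Ak4 from 4.17 to 17.3 and 16.0. For Ldha they were Fhod1 (0.0689), Endog (0.0761) and Bsg (0.0779), against a median of 0.576. Bsg was thus the third nearest of these genes to Ldha. Among the 6 of the 10 genes that reached 10 CPM (Ldha, Slc16a1, Slc16a3, Pdk1, Pdk3 and Mpc2), the nearest pair was Slc16a1 and Pdk3 (0.133), both of which did not pass the test.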

How the data were processed

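Mouse calvarial cells were sequenced at days 0, 4 and 7 with 3 libraries each. The authors aligned the reads with STAR 2.0.4b, counted them per gene with featureCounts (1.45 in the submitters' processing notes, genome GRCm38) and deposited CPM, reads scaled to the library's reads on genes, and RPKM, which also divides by gene length. Tables for days 0 and 7 and for day 4 were deposited apart and were joined by Ensembl identifier, with 276 and 273 identical repeated lines used once. In every library 100% of the deposited CPM values were whole multiples of 1 read (tolerance 0.01), so read numbers and depths were recovered. Reads without molecular identifiers are not independent molecules.

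The test of day 7 over day 0 used limma 3.58.1 (R 4.3.3) with a variance trend, applied to log2(CPM + 0.5) in 12712 genes whose mean CPM reached 1, which left out 11075 genes with reads. P-values were adjusted over all genes tested. Variances were drawn to the trend with 42.9 prior degrees of freedom, and the libraries themselves gave 4, so a gene's own replicates weigh little. A fold on this scale understates changes of low genes. On simulated data of 12712 genes limma recovered 93 of 103 genes changed by 1 on the log2 scale and 97 of 97 changed by 2. It made 7 false calls. Apart from counting noise, the simulation gave every gene the same relative spread between replicates, and it changed few genes. It did not copy the uneven replicates of these libraries, so recovery in the real data was not measured. Fold changes in words are ratios of mean RPKM. Shares were compared with exact permutation tests. Alternatives were pseudocounts of 0.1 and 1, filters at any read and at a mean CPM of 5, median-of-ratios scaling, TMM with voomWithQualityWeights, edgeR 4.0.16 and DESeq2 1.42.0 on recovered reads, a robust variance prior, the RPKM table, a replicate block and each library left out.

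The 10 genes, the pathway and marker lists and the rules for naming genes (every member, every pathway gene past the threshold or needed to read a member, and the 3 nearest genes of the 3 members with the largest called change) were chosen with earlier results of these data known. Ratios between genes were chosen after their values were seen. Coordinates come from GENCODE M21 and promoters from RefSeq. No library was a duplicate of another: the chi-square over its degrees of freedom between replicates was 12.7 to 222.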

Additional observations from a re-analysis of the deposited data

How the results depend on the processing

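Ldha, Slc16a3 and Pdk1 stayed higher and Ldhb lower at day 7 in all 17 alternatives, with log2 fold changes of 1.02 to 1.27, 3.43 to 3.97, 2.03 to 2.33 and -1.15 to -0.93. The number of the 10 genes called higher was 5 with TMM and voomWithQualityWeights and 3 in the other alternatives, and 1 was lower in all. Of the genes that did not pass, Slc16a1, Pdk2, Pdk3 and Mpc2 turned direction when a library was left out. Ranges were -0.10 to 0.28 for Slc16a1 (-0.10 without day 0 replicate 3) and -0.20 to 0.017 for Pdk2 (0.017 without day 0 replicate 3). They were -0.27 to 0.00187 for Pdk3 (0.00187 without day 0 replicate 1) and -0.15 to 0.11 for Mpc2 (-0.15 without day 0 replicate 3, -0.073 without day 7 replicate 3). With a library left out Mpc1 stayed negative (-0.30 to -0.14) and Pdk4 positive (0.15 to 0.41). The direction also turned for Pdk2 and Pdk3 with TMM and voomWithQualityWeights (0.15 and 0.012) and for Pdk2 with edgeR (0.00276). The cause was not tested. Pathway genes called higher numbered 4 with median-of-ratios scaling, 4 with TMM and voomWithQualityWeights, 1 with the RPKM table and 1 to 3 with a library left out, and those called lower 3 with the filter at any read and 3 to 6 with a library left out. Of the 7 pathway calls, Gpt2, Pdhx and Pdp1 were lost in some alternatives, and Bsg, Emb, Pdpr and Pcx in none. Genes lower in every library at day 7 than at day 4 numbered 1 to 4 with a library left out, without a share over all genes to compare.

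Replicate numbers were shared between stages but same-numbered libraries of days 0 and 7 did not deviate together (correlations -0.0172, -0.181 and -0.444), so the numbers were not used as pairs. With the replicate block 3 of the 10 genes were higher and 1 lower, and pathway genes were 1 higher and 3 lower. Over all genes the calls were 1463 higher and 1950 lower with the block, against 1602 and 2369 without it, and 4696 lower without day 0 replicate 3. With median-of-ratios scaling they were 2843 higher and 2612 lower, and 3148 and 2972 with TMM and voomWithQualityWeights. Depth limits Pdk4, Pdk2, Mpc1 and Ldhb most, with as few as 18, 51, 69 and 61 reads in a library.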

Other observations

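The remaining genes of lactate and pyruvate handling were low or did not pass the test. Ldhal6b was at 0 in all 9 libraries, and Ldhc and Pdha2 had at most 3 reads in each. Ldhd, the mitochondrial D-lactate dehydrogenase, stood at 0.272 ± 0.10 RPKM at day 0 and 0.426 ± 0.0352 at day 7 (log2 fold change 0.55; limma adjusted p = 0.112), and was called higher with TMM and voomWithQualityWeights and without day 0 replicate 3. Slc16a7, which encodes MCT2, held 1.43 ± 0.260 and 1.49 ± 0.245 RPKM (log2 fold change 0.07; limma adjusted p = 0.852). Slc16a8, which encodes MCT3, was under the filter on low values, with 0.316, 0.0926 and 0.0715 RPKM at day 0 and 0.932, 0.467 and 0.779 at day 7. Its day 7 libraries were all above those of day 0, and it was called higher when genes with any read were tested. Hcar1, the lactate receptor, ranged between 0.236 and 0.603 RPKM over the 9 libraries. The lipoylation genes Lias, Lipt1 and Lipt2, which fit the lipoyl arm to the E2 subunit, had log2 fold changes of -0.06, 0.17 and 0.51 and none passed, although Lipt2 was called higher with TMM and voomWithQualityWeights, under median-of-ratios scaling and without day 0 replicate 1.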
